A study of Homo sapiens with 6 samples.

Results

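Genes of cytokine signalling through gp130, 10 in all, were described in OVCAR3 cells, a human cell line established from ovarian cancer. They were chosen by gene name and comprised the ligand LIF, the receptor chains OSMR, LIFR, IL6R and IL6ST, the kinases JAK1 and JAK2, the transcription factor STAT3 and its target genes SOCS3 and PIM1. All 10 members were found among the 27104 genes with values, each under a single gene identifier. Poly-A RNA was sequenced from cells at passages 20 to 25, which had been transfected either with an empty vector (3 libraries) or with a vector meant to overexpress DAB2IP, a Ras GTPase-activating scaffold protein (3 libraries, labelled DAB2IP O/E). No other genotype or agent is named, and the labels do not give the promoter of the vector, the time after transfection or whether the cultures were otherwise separate. What a p-value measures here is therefore the spread between libraries, part of which may be technical. Expression was given as FPKM, which divides the fragments of a gene by its length and by a factor for the size of the library. Levels of different genes can thus be compared per length.

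In this family, a cytokine brings further receptor chains together with gp130, the shared chain encoded by IL6ST. JAK kinases bound to gp130 then phosphorylate STAT3, which enters the nucleus and activates genes such as SOCS3 and PIM1. SOCS3 protein binds gp130 and the kinases and shuts the signal off, so the gene is part of a negative feedback loop. Interleukin 6 and LIF are known in ovarian cancer from ascites fluid and from the tumour cells themselves.

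Whole reads recovered from the FPKM ran from 20445867 to 35434533 per library. DAB2IP itself went against the labels: its log2 change was −0.43 (SE 0.06; limma adjusted p 0.00548), and all 3 DAB2IP O/E-labelled libraries lay below all 3 empty vector libraries. Every direction below is a direction in libraries with lower measured DAB2IP. The values do not settle whether the labels of the groups were exchanged or RNA of the construct was not counted, and “with empty vector” below also stands for a label. One protocol speaks of adipocytes, although the remaining labels all name OVCAR3. All 9 markers of ovarian carcinoma epithelium passed the filter, PAX8, MUC16 and EPCAM among them, but the sum of the 9 moved with the groups. It was 862 to 908 FPKM with empty vector and 1137 to 1193 FPKM in the DAB2IP O/E-labelled libraries. Most of the rise came from KRT8 (mean of 141 to 226 FPKM) and KRT18 (244 to 398 FPKM). Of the 9, the keratin genes KRT8 (log2 change 0.68), KRT18 (0.71) and KRT7 (0.25) rose, WT1, a transcription factor gene, fell (−0.45), and 5 did not pass. KRT7 passed in 2 of 6 fits with a library left out and the other 3 in all 6 (limma). The levels of KRT8 and KRT18 are uncertain, since the genes overlap each other and pseudogenes named after them, 44 and 55 in number, have values too. The part of these markers in the results below was not tested. None of the 5 adipocyte markers measured was above 0.532 FPKM. Summed adipocyte markers were at 0.758 to 0.891 FPKM with empty vector and at 0.716 to 0.899 FPKM in the DAB2IP O/E-labelled libraries. The 4 fibroblast markers measured summed to 1.93 to 2.33 and 1.99 to 2.48 FPKM, nearly all of it from the collagen gene COL1A1, and PTPRC, which encodes the leukocyte antigen CD45, was no higher than 0.03 FPKM in any library. The other leukocyte markers and the endothelial markers were at 1.62 FPKM or less.

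The 3 receptor chains called lower, OSMR, LIFR and IL6R, are shown first by the sequence upstream of their starts. They were chosen by that call alone. Their log2 changes differed in size, at −0.68 for OSMR, −0.24 for LIFR and −0.26 for IL6R. The stretches are from RefSeq (GRCh38.p14), run 5′ to 3′ on the strand of the gene, and stop before any annotated exon of a protein-coding gene. Capitals mark a match to TTCNNNGAA, the palindrome that STAT dimers recognise, which reads the same on both strands. The first is chr5:38845762-38845857 (plus strand), the second chr1:154405093-154405192 (plus strand), and the last pair chr5:38556647-38556896 and chr5:38595406-38595655 (minus strand), which lie before a downstream and an upstream start of LIFR.
OSMR: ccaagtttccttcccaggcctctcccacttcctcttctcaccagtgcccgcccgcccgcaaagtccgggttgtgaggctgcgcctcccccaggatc
IL6R: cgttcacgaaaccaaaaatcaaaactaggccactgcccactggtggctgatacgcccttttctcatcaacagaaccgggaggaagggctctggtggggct
LIFR, downstream start: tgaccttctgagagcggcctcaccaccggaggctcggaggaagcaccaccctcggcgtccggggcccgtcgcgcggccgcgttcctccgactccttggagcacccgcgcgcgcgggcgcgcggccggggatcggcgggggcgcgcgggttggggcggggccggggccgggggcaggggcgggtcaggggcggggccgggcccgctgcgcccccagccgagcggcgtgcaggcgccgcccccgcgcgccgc
LIFR, upstream start: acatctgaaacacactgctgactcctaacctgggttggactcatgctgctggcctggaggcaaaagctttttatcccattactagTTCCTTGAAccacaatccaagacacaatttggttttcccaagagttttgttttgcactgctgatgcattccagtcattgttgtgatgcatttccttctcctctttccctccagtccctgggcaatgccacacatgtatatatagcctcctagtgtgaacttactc
Of the LIFR stretches shown, the one without a match was 83.6% G and C and held 44 CpG dinucleotides. The one with a match was 45.2% G and C and held 0. Another LIFR stretch, chr5:38557468-38557717, is not shown. It held the match TTCATCGAA, was 40.8% G and C and held 4 CpG dinucleotides. The median over all promoter windows was 58% in the 250 bases before the start, with quartiles of 46.4% and 68%. Gene-level values do not say which start was used.

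In the full windows, which run from 250 bases before to 50 bases after each start, 9 of the 10 members had 17 starts. LIF had no window. The SOCS3 windows covered neither the start of the gene as annotated here, at 78360077 on chromosome 17, nor the 250 bases before it. So the search does not cover that stretch of SOCS3. The same holds for LIFR, whose start as annotated here is at 38608354 on chromosome 5, while its windows reach no further than 38595655. The PIM1 window ends at 37170201 on chromosome 6, just before the annotated start at 37170203. TTCNNNGAA was found at 2 of the 17 starts, both of LIFR, as TTCCTTGAA and TTCATCGAA, against 7.66% of 35116 windows over all genes. The narrower TTCCNGGAA, which overlaps the first motif by definition, was found in none of the member windows and in 1.15% of all windows. TGANTCA is a looser form of the site bound by AP-1, which has C or G at N. It lay within the 50 bases after the start of OSMR (TGATTCA) and of IL6R (TGAGTCA), against 7.71% of all windows. The OSMR match has T at N and so is not the AP-1 site itself. These are matches of letters, not binding sites.

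OSMR, LIFR and IL6R were lower in the DAB2IP O/E-labelled libraries, and SOCS3 was higher. In RNA from whole cultures, fewer cells of a kind and less RNA per cell cannot be told apart. Of the 10 members, all of which passed the filter of a mean of at least 1 FPKM, 3 fell, 1 rose and 6 did not pass in limma, with 0.05 as the threshold for p-values adjusted by Benjamini-Hochberg over 14761 genes. Of all genes tested, 18.5% were called, 9.29% higher and 9.17% lower. The groups did not overlap in 7 of the 10 members, against 40.4% of all genes. The median log2 change of the members was −0.09 and that of all genes tested was −0.0004. The median size of the change, without its sign, was 0.23 for the members and 0.12 for all genes.

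**Figure D1:**
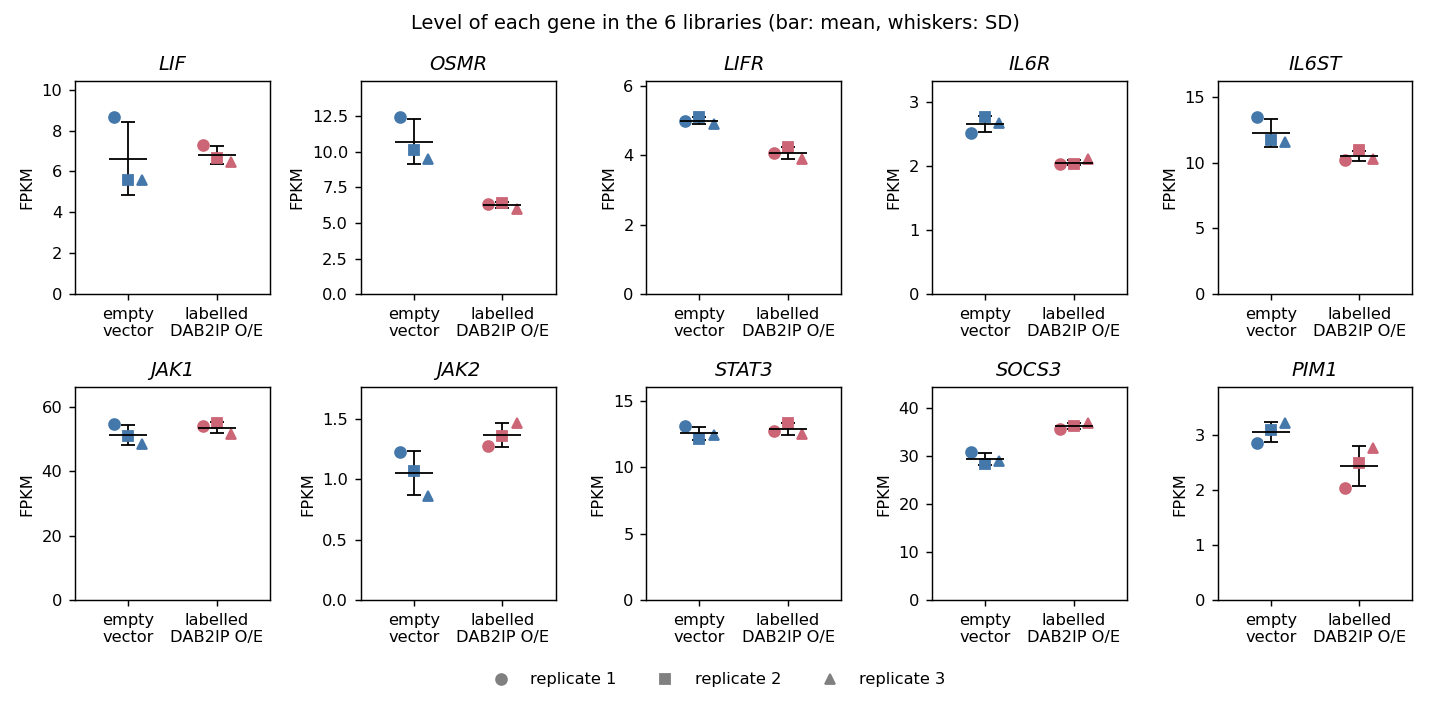
FPKM of each of the 10 genes in the 6 libraries, by vector, with each axis starting at 0. Points are libraries, the bar is the mean and whiskers are the SD (n = 3). The groups are apart in OSMR, LIFR, IL6R, IL6ST, JAK2, SOCS3 and PIM1 and overlap in LIF, JAK1 and STAT3.

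By level, JAK1 led the members with a mean of 52.4 FPKM over the 6 libraries, followed by SOCS3 with 32.9 FPKM. STAT3 (12.7 FPKM), IL6ST (11.4 FPKM), OSMR (8.48 FPKM) and LIF (6.71 FPKM) came next, and in each neighbouring pair of these 4 the ranges over libraries overlapped. LIFR had a mean of 4.53 FPKM, PIM1 2.75 FPKM, IL6R 2.36 FPKM and JAK2 1.21 FPKM, with PIM1 and IL6R overlapping. In every library IL6ST was above OSMR, LIFR and IL6R on the FPKM scale, and the kinase JAK1 far above its relative JAK2.

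LIF, the ligand, did not differ beyond its spread. Its levels were 8.69, 5.60 and 5.59 FPKM with empty vector and 7.28, 6.65 and 6.44 FPKM in the DAB2IP O/E-labelled libraries. The first empty vector library was the highest of all 6 and the others of that group were the lowest. The log2 change was 0.05 (95% confidence interval −0.29 to 0.40; limma adjusted p 0.822). Without the first empty vector library it was 0.24 (limma adjusted p 0.0538), and it turned to −0.04 when the second or the third was left out. Of the gene's exon bases, 6.73% are shared with AC004264.1 and LIF-AS1 on the opposite strand.

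OSMR, the chain that pairs with gp130 to bind oncostatin M, changed most among the members. Its levels were 12.5, 10.1 and 9.51 FPKM with empty vector and 6.32, 6.43 and 6.01 FPKM in the DAB2IP O/E-labelled libraries. Every empty vector library lay above every library of the other group, and the spread was wider with empty vector. The mean fell from 10.7 ± 1.6 to 6.25 ± 0.22 FPKM (SD, n = 3 each), a 1.71-fold higher level with empty vector. The log2 change was −0.68 (SE 0.09; limma adjusted p 0.0046), and only 1.89% of genes tested had a change of larger size. Each value rested on 1085 to 1934 reads. The call held with each library left out in turn, with adjusted p-values of 0.00307 to 0.0254 (limma), and without the high first empty vector library the log2 change was −0.58.

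LIFR, which binds LIF and pairs with gp130, fell too, with a smaller log2 change. Its levels were 4.99, 5.12 and 4.90 FPKM with empty vector and 4.07, 4.24 and 3.90 FPKM in the DAB2IP O/E-labelled libraries. Within each group the values lay close together, and the groups were apart. The log2 change was −0.24 (SE 0.05; limma adjusted p 0.0211). The call was lost without the second empty vector library (adjusted p 0.0800), without the first DAB2IP O/E-labelled library (0.0622) and without the third (0.0954; limma).

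LIFR and OSMR are neighbours on the short arm of chromosome 5. LIFR (ENSG00000113594.9) lies on the minus strand from 38474963 to 38608354, and OSMR (ENSG00000145623.12) lies on the plus strand from 38845858 to 38945596 in GRCh38. The gap between them is 238 kb and holds 3 further genes, none of which passed the filter on low values. Between 30 and 40 Mb of chromosome 5 the median log2 change of the 41 other genes tested was −0.20, close to the change of LIFR while OSMR stood at −0.68. Within 1 Mb of the pair 2 other genes were tested, RICTOR, a subunit of the kinase complex mTORC2, with a log2 change of −0.22 and an adjusted p of 0.107, and WDR70 with −0.13 and an adjusted p of 0.0874 (limma). RICTOR overlaps 3.19% of the exon bases of OSMR and LIFR-AS1 overlaps 5.30% of those of LIFR, in each case on the opposite strand. The part of the region in these results was not tested.

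IL6R, the chain that binds interleukin 6, was the weakest receptor measured among the members. It was at 2.52, 2.77 and 2.68 FPKM with empty vector and at 2.03, 2.03 and 2.11 FPKM in the DAB2IP O/E-labelled libraries, on 325 to 490 reads each. All 3 values of the latter group lay below those of the former. The log2 change was −0.26 (SE 0.06; limma adjusted p 0.0243). The gene lies on chromosome 1 between 150 and 160 Mb, where the median of 170 other genes tested was 0.09. The call held in 1 of 6 fits with a library left out, without the first empty vector library (adjusted p 0.0329), and in the other 5 the adjusted p was 0.0546 to 0.0914 (limma). With no filter on low values it was 0.0540 (limma).

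IL6ST, which encodes gp130, did not pass. It was at 13.5, 11.7 and 11.6 FPKM with empty vector and at 10.2, 10.9 and 10.3 FPKM in the DAB2IP O/E-labelled libraries. The groups were apart by 0.651 FPKM at their nearest. The log2 change was −0.20 (95% confidence interval −0.36 to −0.05; limma adjusted p 0.0740). A similarly named pseudogene is among the genes with values, and AC008914.1 on the opposite strand shares 8.58% of the exon bases. In the authors' deposited table the gene did pass, with an adjusted p of 0.0158 and a log2 fold change of −0.22 once its sign was turned to the direction used here.

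Set against IL6ST within each library, the groups were apart for OSMR and overlapped for the other chains. The ratio of OSMR to IL6ST in FPKM was 0.923, 0.867 and 0.820 with empty vector and 0.618, 0.587 and 0.584 in the DAB2IP O/E-labelled libraries. The ratio of LIFR to IL6ST was 0.410 ± 0.036 and 0.388 ± 0.010, and that of IL6R to IL6ST was 0.218 ± 0.027 and 0.196 ± 0.010 (SD, n = 3 each). OSMR was at 2.50, 1.98 and 1.94 times the level of its neighbour LIFR with empty vector and at 1.55, 1.52 and 1.54 times that level in the other group. With 3 libraries per group an exact 2-sided permutation test of such a ratio cannot go below p = 0.1, the value that groups apart from each other give.

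**Figure D2:**
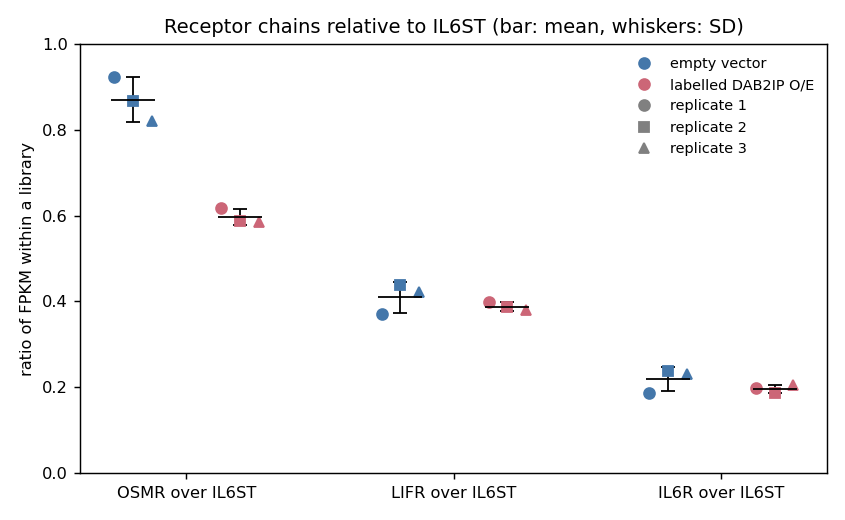
Ratio of the FPKM of OSMR, LIFR and IL6R to that of IL6ST within each library. Points are libraries, the bar is the mean and whiskers are the SD (n = 3). For OSMR the DAB2IP O/E-labelled libraries sit between 0.584 and 0.618, below all empty vector libraries, and for LIFR and IL6R the groups overlap.

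JAK1, the kinase known as the main one at gp130, was at 54.5, 50.9 and 48.3 FPKM with empty vector and at 53.9, 55.0 and 51.5 FPKM in the DAB2IP O/E-labelled libraries, with overlapping groups. The 95% confidence interval of its log2 change was −0.07 to 0.19. JAK2 was at 1.23, 1.07 and 0.863 FPKM and at 1.27, 1.36 and 1.47 FPKM. Its groups were apart, by 0.0448 FPKM at their nearest, and the log2 change was 0.21 (95% confidence interval 0.002 to 0.41; limma adjusted p 0.139). JAK2 rested on no more than 282 reads in any library. STAT3 was at 13.1, 12.1 and 12.4 FPKM and at 12.7, 13.3 and 12.5 FPKM, with overlapping groups and a log2 change of 0.03 (95% confidence interval −0.09 to 0.15). The adjusted p-values of JAK1 and STAT3 were 0.479 and 0.685 (limma).

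SOCS3, the feedback inhibitor, rose. Its levels were 30.9, 28.4 and 29.1 FPKM with empty vector and 35.7, 36.3 and 37.0 FPKM in the DAB2IP O/E-labelled libraries. Every library of the second group was above every one of the first. The mean went from 29.4 ± 1.3 to 36.3 ± 0.61 FPKM (SD, n = 3 each), a log2 change of 0.30 (SE 0.05; limma adjusted p 0.00773). With each library left out the call held, at adjusted p-values of 0.00725 to 0.0458 (limma). SOCS3 lies on chromosome 17 between 70 and 80 Mb, where the median log2 change of 99 other genes tested was 0.15. Its ratio to STAT3 was 2.35 ± 0.01 with empty vector and 2.83 ± 0.12 (SD, n = 3 each) in the DAB2IP O/E-labelled libraries.

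PIM1, a serine/threonine kinase and STAT3 target gene, stood on the other side of 0. It was at 2.86, 3.09 and 3.22 FPKM with empty vector and at 2.05, 2.49 and 2.76 FPKM in the DAB2IP O/E-labelled libraries. The groups were apart by 0.0999 FPKM at their nearest, and in each the first library was the lowest. The log2 change was −0.25 (95% confidence interval −0.45 to −0.04; limma adjusted p 0.0941), so PIM1 did not pass while SOCS3 did. PIM1 was counted with 170 to 272 reads per library.

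**Figure D3:**
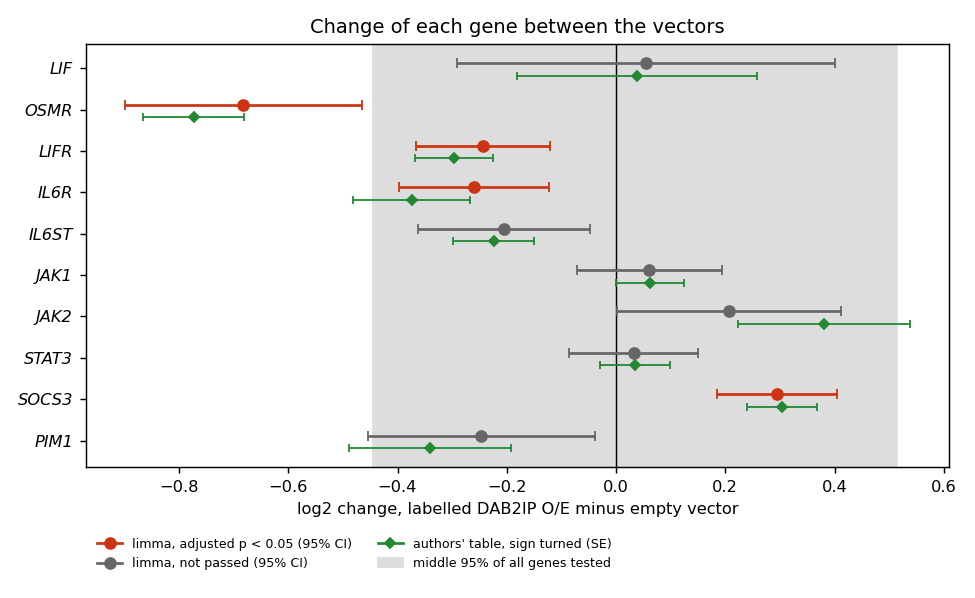
Log2 change of each gene, DAB2IP O/E-labelled libraries minus empty vector. Circles are limma values on log2(FPKM + 1) with 95% confidence intervals, diamonds the authors' deposited log2 fold changes with their sign turned and their SE, and the grey band holds the middle 95% of all genes tested (−0.44 to 0.51). OSMR alone lies outside the band, and OSMR, LIFR, IL6R and SOCS3 passed in the limma test.

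In the authors' deposited table, 5 of the 10 members had an adjusted p under 0.05, against 19% of genes with an adjusted p there. They were the 4 named above and IL6ST. The authors' deposited log2 fold changes, turned to the direction used here, were −0.77 for OSMR, −0.30 for LIFR, −0.37 for IL6R and 0.30 for SOCS3. For JAK2 and PIM1 the authors' deposited table gave 0.38 and −0.34, with adjusted p-values of 0.0722 and 0.0935. On whole reads recovered from the FPKM, limma-voom called 7 of the 10 members, the same 4 with IL6ST, JAK2 and PIM1, against 23.2% of all genes. The pseudocount of 1 FPKM makes the limma changes of the weaker genes smaller than these.

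The wider pathway was described by lists of 87 different genes, of which 79 had values and 61 were tested. Of these, 4 rose, 12 fell and 45 did not pass, which is 26.2% called beside 18.5% of all genes. Their median log2 change was −0.03. The counts of each list below stand beside the same 18.5% called over all genes.

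Among the 10 ligands of the family and their partners, 9 had values and 3 were tested, with none called by limma. CLCF1, a ligand of the CNTF receptor, had a log2 change of 0.06, and CTF1, cardiotrophin 1, one of −0.29 (limma adjusted p 0.111). IL6 itself lay below the filter, at 0.678, 0.701 and 0.614 FPKM with empty vector and 0.43, 0.853 and 0.576 FPKM in the DAB2IP O/E-labelled libraries, with overlapping groups. OSM, which encodes the ligand of OSMR, was not analysed here. Of the 6 receptor genes tested, the members OSMR, LIFR and IL6R fell, the member IL6ST did not pass and none rose, with a median of −0.22. IL11RA, the receptor chain for interleukin 11, and IL27RA were on the other side, with log2 changes of 0.29 and 0.09 and adjusted p-values of 0.104 and 0.531 (limma).

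Of 5 STAT genes tested, STAT6 and STAT2 rose and 3 did not pass. STAT6, known for signalling from the interleukin 4 receptor, was at 1.19, 1.27 and 1.10 FPKM with empty vector and at 2.45, 2.19 and 2.14 FPKM in the DAB2IP O/E-labelled libraries. The groups were far apart, and the log2 change of 0.58 had an adjusted p of 0.00317 (limma). STAT2, known for interferon signalling, had a log2 change of 0.21 and an adjusted p of 0.0331, and it passed in 1 of 6 fits with a library left out, with an adjusted p of up to 0.114 (limma). The other JAK gene tested, TYK2, did not pass at 0.10.

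Of 12 inhibitors of JAK-STAT signalling tested, SOCS3 rose, SOCS4 and PTPN2 fell and 9 did not pass, with a median of −0.02. PTPN2, a phosphatase that acts on JAK and STAT proteins, fell from 17.9 ± 1.0 to 13.5 ± 0.45 FPKM (SD, n = 3 each). It lies in a part of chromosome 18 where the median log2 change of 22 other genes tested was −0.31, beside −0.38 for PTPN2, and 2 similarly named pseudogenes have values. SOCS4, a relative of SOCS3, had −0.33, and its call was lost in 3 of 6 fits with a library left out. PTPN1 and PIAS3, a phosphatase and a STAT3 inhibitor, had log2 changes of 0.04 and −0.01.

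Among 7 adaptors at gp130 and proteases that shed its partner chains, all tested, GRB2 rose, GAB2 and PTPN11 fell and 4 did not pass, with a median of −0.07. PTPN11 encodes the phosphatase SHP2, which competes with SOCS3 for a site on gp130, and it fell from 52.0 ± 4.8 to 43.0 ± 0.39 FPKM (SD, n = 3 each). The adaptors GRB2 and GAB2 had log2 changes of 0.17 and −0.33. The calls depended on which libraries were included, as PTPN11 and GAB2 passed in 2 and GRB2 in 1 of 6 fits with a library left out, with adjusted p-values up to 0.112 (limma). The sheddases ADAM10 and ADAM17 had log2 changes of −0.11 and 0.08 and did not pass.

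Known STAT3 target genes did not move one way. Of 24 tested, SOCS3 rose, CEBPB, FOSL2, LRG1, VEGFA and BCL3 fell and 18 did not pass, with a median of −0.05. Over all genes tested, 18.5% were called by limma. CEBPB, a transcription factor of the acute-phase response, fell from 22.0 ± 1.5 to 16.3 ± 0.47 FPKM, and FOSL2, an AP-1 subunit, from 25.5 ± 1.6 to 19.3 ± 0.22 FPKM (SD, n = 3 each). LRG1, a secreted glycoprotein, had a log2 change of −0.35, the vascular growth factor VEGFA −0.33, and the NF-kB cofactor BCL3 −0.36. CEBPB, FOSL2 and LRG1 passed with each library left out, VEGFA in 4 and BCL3 in 2 of 6 such fits. BCL6 and MCL1 had log2 changes of −0.19 and 0.16 and did not pass. Of 12 acute-phase genes, 6 had values and 2 were tested, complement C3 and CFB, with log2 changes of 0.08 and −0.10 and neither called by limma. Other genes on the same strand share 45.5% of the exon bases of CFB.

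**Figure D4:**
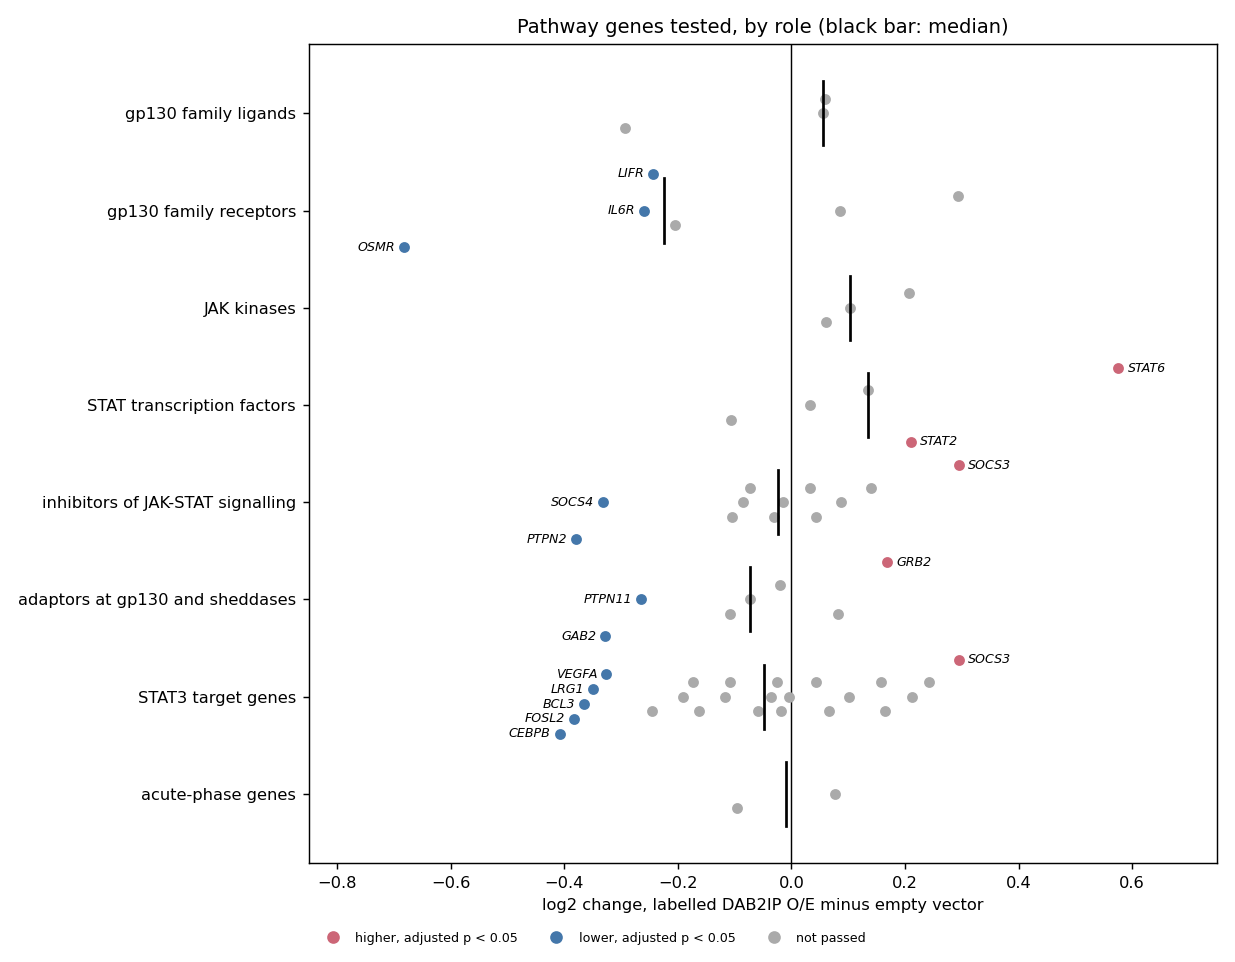
Log2 change of each pathway gene tested, by role, DAB2IP O/E-labelled libraries minus empty vector. Points are genes, coloured by the limma call at an adjusted p under 0.05, and black bars are medians. The receptors have the lowest median (−0.22), and 5 STAT3 target genes lie between −0.41 and −0.33 while SOCS3 lies at 0.30.

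Libraries differed within groups in some of these genes. The first empty vector library was the highest of its group in 7 of the 10 members. The same count was not made over all genes, so whether this is particular to the members was not tested. FOS, an immediate early gene and STAT3 target, was at 6.30 FPKM in the first empty vector library against 33.9 and 30.3 FPKM in the others, and at 2.87 FPKM in the first DAB2IP O/E-labelled library against 46.5 and 52.6 FPKM. Its part in the results was not tested.

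OSMR had the lowest adjusted p among the members. The genes whose pattern over the 6 libraries was most like it were AC018809.1, a sense intronic RNA gene (Pearson's r of log2(FPKM + 1) 0.9988), AC132192.2, an antisense RNA gene (0.9988), and PPP3CA, which encodes a catalytic subunit of calcineurin (0.9985). They share the 6 libraries and the difference between the groups with OSMR, and PPP3CA went from 8.87 ± 0.38 to 7.65 ± 0.08 FPKM (SD, n = 3 each).

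**Figure D5:**
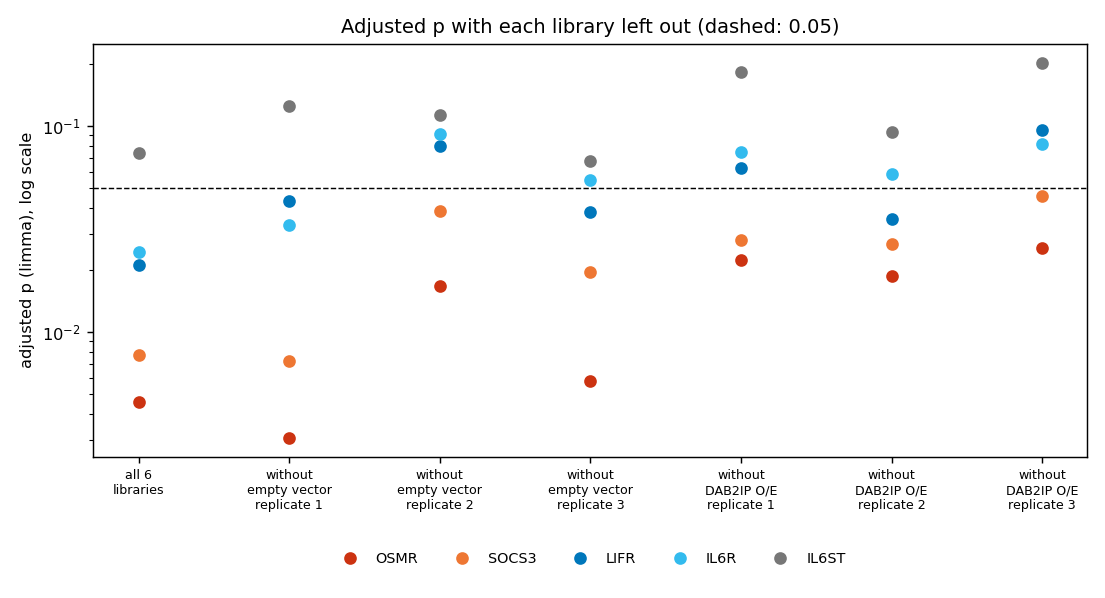
Adjusted p of OSMR, SOCS3, LIFR, IL6R and IL6ST in the limma test with all 6 libraries and with each library left out, on a log axis with the threshold of 0.05 dashed. OSMR and SOCS3 stay below the threshold throughout, LIFR and IL6R cross it, and IL6ST stays above it.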

How the data were processed

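The authors deposited FPKM per gene and library, and their own comparison table. Per the file headers, that table holds a mean normalised count (a signal), log2 fold changes with SE, a test statistic (a score), a p-value and an adjusted p-value, in columns as DESeq2 writes them. Per the submitters' processing notes, Trimmomatic 0.32, TopHat2 2.1.1, Bowtie, DESeq2 1.12.4, R 3.3.1 and the builds GRCh38.p5 and hg19 were named, without roles. For the counting tool, its use of strand and the annotation: not given in the sources used here, so overlapping genes and pseudogene copies are uncertain. Of the gene identifiers, 25344 are in GENCODE 29 and all 25344 have the same coordinates there, so positions are in GRCh38.

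Testing used limma 3.58.1 (R 4.3.3, 2-sided, with a mean-variance trend) on log2(FPKM + 1), for the 14761 genes whose mean was 1 FPKM or more, adjusted by Benjamini-Hochberg. The same fit was run on simulated counts with a single spread setting for all genes. That differs from these libraries, so no conclusion on the calls is drawn from it. Log2 changes are on that scale, which understates those of weak genes; means and folds are of FPKM. In the authors' deposited table the log2 fold change ran from DAB2IP O/E to empty vector, since it had the sign of the ratio of empty vector to DAB2IP O/E in 8251 of 8277 genes with a mean normalised count over 500. FPKM times the mean normalised count over the mean FPKM gave whole reads, within 0.01 for 100% of values. No pair of libraries was a duplicate: the chi-square per gene was 3.61 to 13.2 within groups. Region medians are over genes tested in the same 10 Mb. The members and lists were chosen with earlier results of these data known. All members and the called genes of each list are named, with up to 4 others per list, except 1 gene that is counted but not reported here. Alternatives were another pseudocount, other filters, equal library medians, limma-voom on the recovered reads, a replicate block, and leaving out each library. The read filter for limma-voom (at least 10 reads in 3 libraries) was chosen after the data were seen and replaced another filter, under which as many members were called.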

Additional observations from a re-analysis of the deposited data

How the results depend on the processing

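Of the 10 members, 4 were called. The count was 2 with a filter of 5 FPKM, which leaves out LIFR, IL6R, JAK2 and PIM1, and 7 when the recovered reads were tested with limma-voom, which added IL6ST, JAK2 and PIM1. With a library left out, 2 to 4 members were called, and 2 without the second empty vector library, the first DAB2IP O/E-labelled library or the third DAB2IP O/E-labelled library. Over all genes, 2725 were called with all libraries, 956 to 2731 with a library left out (1210, 1289 and 956 without those 3 libraries) and 4476 with limma-voom. The log2 change of LIF turned to −0.04 without the second (−0.037) or the third (−0.038) empty vector library and was 0.24 without the first; the cause was not tested. All other members and DAB2IP kept their direction in every alternative that tested them. With equal library medians the log2 change of the median gene moved by −0.03 and the same number of members, 4, was called.

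Same-numbered libraries deviated together only weakly (correlations of 0.12, 0.10 and 0.06), although each library correlated best with its own number. The labels name no pairs, and whether the numbers mark them was not settled, so the main fit takes the libraries as unpaired. With the replicate number as a block, 2393 genes and 4 members were called, and GRB2 had an adjusted p of 0.0516 (limma). Groups of 3 were too small for a check on single outlying libraries, and levels below 1 FPKM rest on few reads.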

Other observations

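Some genes of the acute-phase and STAT3 lists were high in the first empty vector library, as LIF was, and others were low. These genes were chosen after their values were seen. LIF was there at 1.55 times its mean in the other empty vector libraries, LCN2, which encodes lipocalin 2, at 1.53 times (10.5 against 6.86 and 6.89 FPKM), and the complement genes C3 and CFB at 1.45 times each. OSMR was at 1.27 times. The level of CFB is uncertain, since 45.5% of its exon bases are shared with AL645922.1 and C2 on the same strand. On the low side, FOS was at 0.196 times and JUNB, an AP-1 subunit, at 0.591 times (4.74 against 7.45 and 8.57 FPKM). Both were also lowest in the first library of the DAB2IP O/E-labelled group. There FOS was at 2.87 against 46.5 and 52.6 FPKM, and JUNB at 4.71 against 5.97 and 7.11 FPKM. Over the 14761 genes tested the median ratio was 0.997 and the middle 95% lay between 0.636 and 1.41. In the DAB2IP O/E-labelled libraries, C3 was at 124 to 130 FPKM, between the first empty vector library (154 FPKM) and the others (106 and 107 FPKM). SAA1, which encodes an acute-phase serum amyloid, was below the filter and is not among those 14761 genes. It was at 2.95 FPKM in the first empty vector library, 0.889 and 0.784 FPKM in the others and 0.312 to 0.543 FPKM in the DAB2IP O/E-labelled libraries, on 6 to 45 reads.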
